A study of Mus musculus with 4 samples.

Results

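Kidneys of diabetic FVB/N mice were compared with kidneys of control FVB/N mice, gene by gene, on an Illumina mouse bead array. FVB/N is an inbred laboratory mouse strain. Per the labels the diabetic mice had been diabetic for 21 days, and the controls, which were injected with saline, were kept for the same 21 days. All animals were 8 weeks old and of both sexes, with 6 kidneys per group. Each group has 1 column of deposited values, called a library here. The sources used here do not say whether that column pools the 6 kidneys or holds 1 of them, nor how diabetes was induced. A diabetic and a control library of C57BL/6 mice, another inbred strain, of the same age and treatment times, serve only as points of reference. The deposited values are log2 intensities, so a difference of 1 is a 2-fold difference. Every gene was taken at its brightest probe, by the mean over the 4 libraries, and counted as expressed when that mean reached 5.49, the median of all probes. This left 9201 of 15967 genes. With 1 library a side there is no replicate spread, so no test was run, and every difference below describes these libraries; in whole kidney, fewer cells of a type and less RNA per cell cannot be told apart.

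The kidney filters plasma in the glomerulus and takes back what the body keeps along the tubule. The proximal tubule reabsorbs glucose, amino acids, phosphate and bicarbonate and secretes organic anions, the loop of Henle builds the salt gradient of the medulla, and the collecting duct sets the final water content of urine. In uncontrolled diabetes more glucose is filtered than the proximal tubule can take back, and the glucose left in the tubule carries water and salt with it. Vasopressin then acts on principal cells of the collecting duct through cyclic AMP, which brings the water channel aquaporin-2 to the cell surface and raises transcription of its gene. Insulin is a main driver of fatty acid synthesis genes, through the transcription factor SREBP-1c, and a lack of insulin turns tissues towards burning fat.

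In the FVB/N diabetic library 373 genes, 4.05% of those expressed, were at least 2-fold higher than in the FVB/N control, and 201 genes, 2.18%, at least 2-fold lower. After loess centring of the differences on intensity the split was 481 higher and 145 lower. The median difference over all expressed genes was -0.10, and the differences of lists of genes are to be read against it. At the smaller threshold of 1.5-fold, which is used for members of gene lists, 1142 genes or 12.4% were higher and 1282 or 13.9% lower. Each gene's FVB/N values were also set against the range between its C57BL/6 libraries. Of the 373 higher genes, 162 had the control value below that range and the diabetic value above it, and 79 had both values on the same side of it. The diabetic value alone lay outside the range for 122 genes, the control value alone for 8 and neither for 2. Of the 201 lower genes, 114 had their values on opposite sides of the range and 27 on the same side. The diabetic value alone was outside for 46, the control value alone for 13 and neither for 1. An FVB/N gap wider than the C57BL/6 range must leave a value outside it. The small counts with neither outside therefore follow from selecting 2-fold gaps. The classes were not counted over all genes, so they only describe the selected ones.

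**Figure D1:**
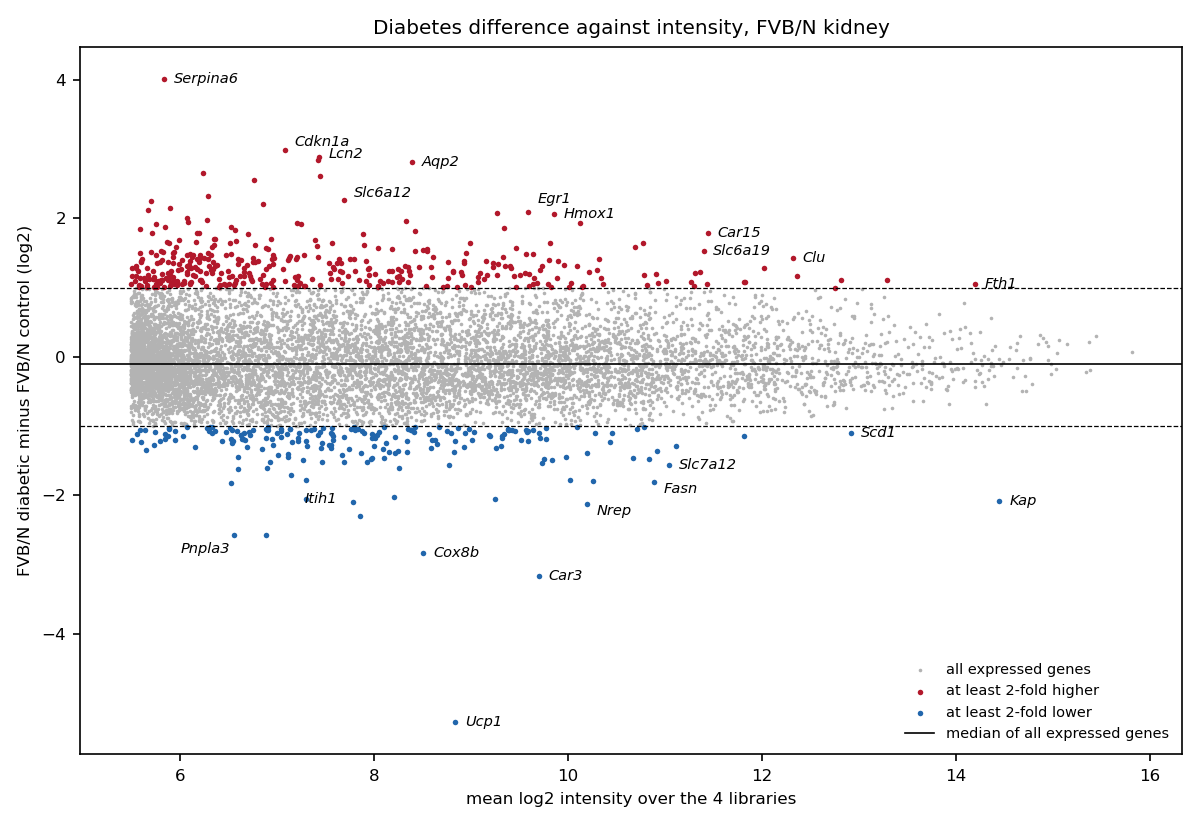
Difference between the FVB/N diabetic and control libraries (log2, y axis) against the mean log2 intensity over the 4 libraries (x axis) for the 9201 expressed genes. Dashed lines mark 2-fold, the solid line the median of all genes at -0.10; the 373 higher genes lie mostly at low and middle intensity, and Ucp1 at -5.27 and Serpina6 at 4.01 are the extremes.

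The precision of a single value could be read only from genes with a further expressed probe. For 45 of the 373 higher genes the next brightest probe was also expressed. It was above 0 for 40 of them and at least 1.5-fold higher for 30, with a median of 0.86, while over all 1372 genes with a further probe it was above 0 for 60.1%. For 25 of the 201 lower genes it was below 0 for 14 and at least 1.5-fold lower for 5, with a median of -0.05. The next probes of these lower genes were dim, with a median intensity of 5.89 against 7.29 for the brightest. They thus had little room above the minimum to show a lower value. For the higher genes the medians were 6.32 and 8.42. The part of intensity in this was not tested. The spread of a single probe's difference, as a standard deviation estimated from such pairs, was 0.47. That estimate takes both probes as equally precise. This spread comes from probes on the same arrays and holds no variation between animals or arrays. A single gene less than 2-fold apart therefore weighs little, and a larger difference is not shown to be repeatable either. Properties of the probes and genes also moved with the direction. Of the genes in the shortest 20% by genomic span 97 were 2-fold higher and 30 lower, and of those in the longest 20% 38 were higher and 55 lower. Their part in the results below was not tested.

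**Figure D2:**
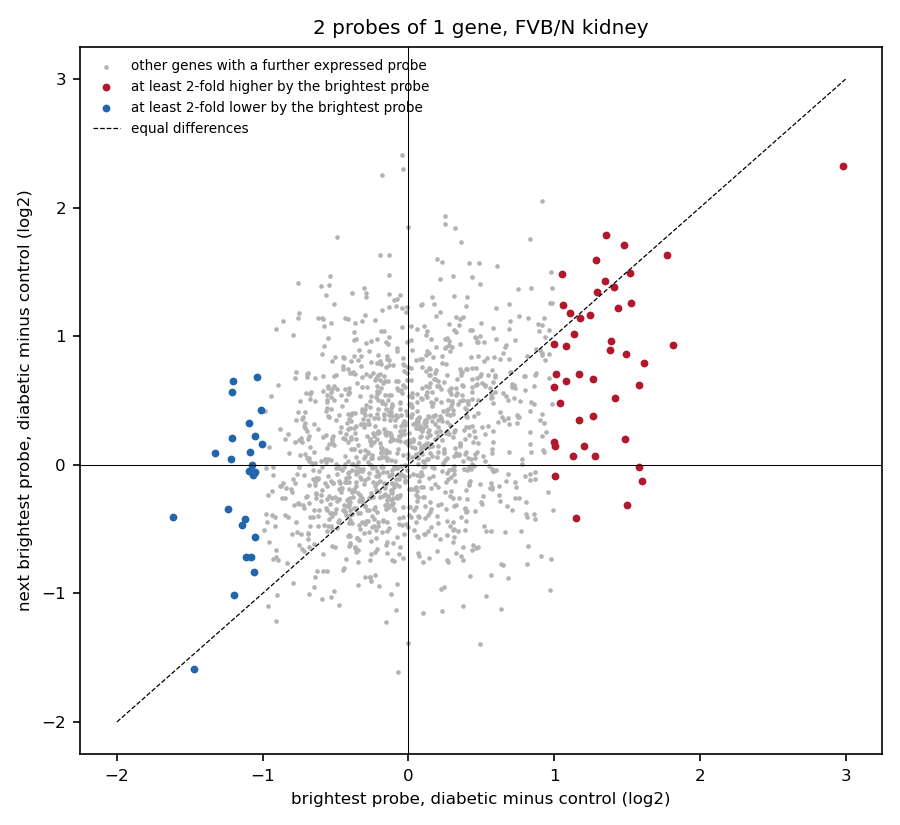
FVB/N difference (log2) of the brightest probe (x axis) against that of the next brightest probe of the same gene (y axis), for 1372 genes with a further expressed probe. Red points, 2-fold higher by the brightest probe, lie above 0 on the y axis for 40 of 45 genes; blue points, 2-fold lower, lie below 0 for 14 of 25.

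Genes of water reabsorption in the collecting duct were among the highest in the diabetic library. Aqp2, the vasopressin-regulated water channel, was 7.83 in the control and 10.64 in the diabetic FVB/N library, a difference of 2.81, while both C57BL/6 libraries lay at 7.67 and 7.43. Only the FVB/N diabetic library was high. Aqp3, the channel of the basolateral membrane through which that water leaves the cell, was 5.30 in the control, below the expression minimum, and 7.96 in the diabetic library. With the control raised to the minimum its difference of 2.66 became 2.48. Adcy6, an adenylyl cyclase that makes cyclic AMP after vasopressin binds, was 7.03 and 8.63, but its other expressed probe was -0.12. Avpr2, the vasopressin receptor, was 8.10 and 7.79, a difference of -0.31, so the receptor and the channel did not move together. Of 17 expressed genes of the aquaporin and vasopressin list 5 were at least 1.5-fold higher and 0 lower, with a median of 0.15 that became -0.07 over the 12 members kept by a stricter intensity minimum. Aqp1, the constitutive water channel of the proximal tubule and thin limb, was 14.93 and 14.44 by its brightest probe and 1.77 higher by its other one.

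The RefSeq promoter of Aqp2 is shown because the cyclic AMP response element is the textbook route from vasopressin to this gene. The window runs from 250 bases before to 50 after the start, in GRCm38.p6 at chr15:99578806-99579105, plus strand, and is written 5′ to 3′ along the gene. Capitals mark the match to TGACG, the core of that element, which lies on the reverse strand and so reads CGTCA.
Aqp2: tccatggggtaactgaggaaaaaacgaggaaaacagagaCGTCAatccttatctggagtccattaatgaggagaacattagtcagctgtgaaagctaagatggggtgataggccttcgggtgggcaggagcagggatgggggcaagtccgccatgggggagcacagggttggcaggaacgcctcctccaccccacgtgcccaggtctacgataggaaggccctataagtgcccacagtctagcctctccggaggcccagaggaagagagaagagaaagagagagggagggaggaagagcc
This core was searched on both strands. It was found in 23.0% of all 27025 promoters and in 33.5% of the 7487 expressed genes with a promoter in the table. Among such genes it was in 37.0% of the 308 that were 2-fold higher and in 25.5% of the 161 that were 2-fold lower. Of 13 promoters of the aquaporin and vasopressin list 4 held it. A match is a run of letters, not a site shown to be used.

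Other principal cell genes were higher as well. Of 18 expressed markers of principal cells 8 were at least 1.5-fold higher and 0 lower, and their median of 0.46 compares with -0.10 for all genes and -0.15 for the same markers in C57BL/6. Hsd11b2, which inactivates glucocorticoids and so keeps the mineralocorticoid receptor for aldosterone, was 7.06 in the control and 8.27 in the diabetic library. Elf5, a transcription factor of principal cells, was 5.89 and 7.10, and the cation channel Mcoln3 was 5.65 and 6.73. By their brightest probes all 3 were over 2-fold higher in FVB/N, though the mean over all probes of Elf5 differed by 0.52. The subunits of the epithelial sodium channel, the aldosterone-regulated entry step for sodium, were closer together. Scnn1g was 9.74 and 10.47, Scnn1a was 8.97 and 9.56 and Scnn1b was 9.28 and 9.84, so each subunit was higher by 0.56 to 0.73.

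Intercalated cells, which lie between principal cells and secrete acid or base, did not share this pattern. Of 13 expressed markers 2 were higher and 5 lower, with a median of -0.30. The acid-secreting cell's anion exchanger Slc4a1 was 11.19 and 10.43, the vacuolar proton pump subunit Atp6v1c2 was 9.31 and 8.59, and the ammonia transporter Rhbg was 9.44 and 8.76. Pendrin, Slc26a4, the exchanger of base-secreting cells, was 10.28 and 9.66. The transcription factor Foxi1 was 5.48 and 6.45 and Slc4a9, a transporter of base-secreting cells, 6.01 and 6.76. Slc4a1 is also the anion exchanger of red blood cells, and red cell markers were lower in the diabetic library: 3 of 6 expressed members were at least 1.5-fold lower and 0 higher, and the log2 of their summed intensity was 14.21 in the control and 13.46 in the diabetic library. The hemoglobin genes Hbb-b2 and Hbb-bt were 12.82 and 11.36, and 8.97 and 7.50, and Hba-a1 was 13.00 and 12.69. Slc4a1 itself stands in both lists and is among the 3 lower red cell members, so that count is not separate from its own value. The part of blood in the value of Slc4a1 was not tested.

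**Figure D3:**
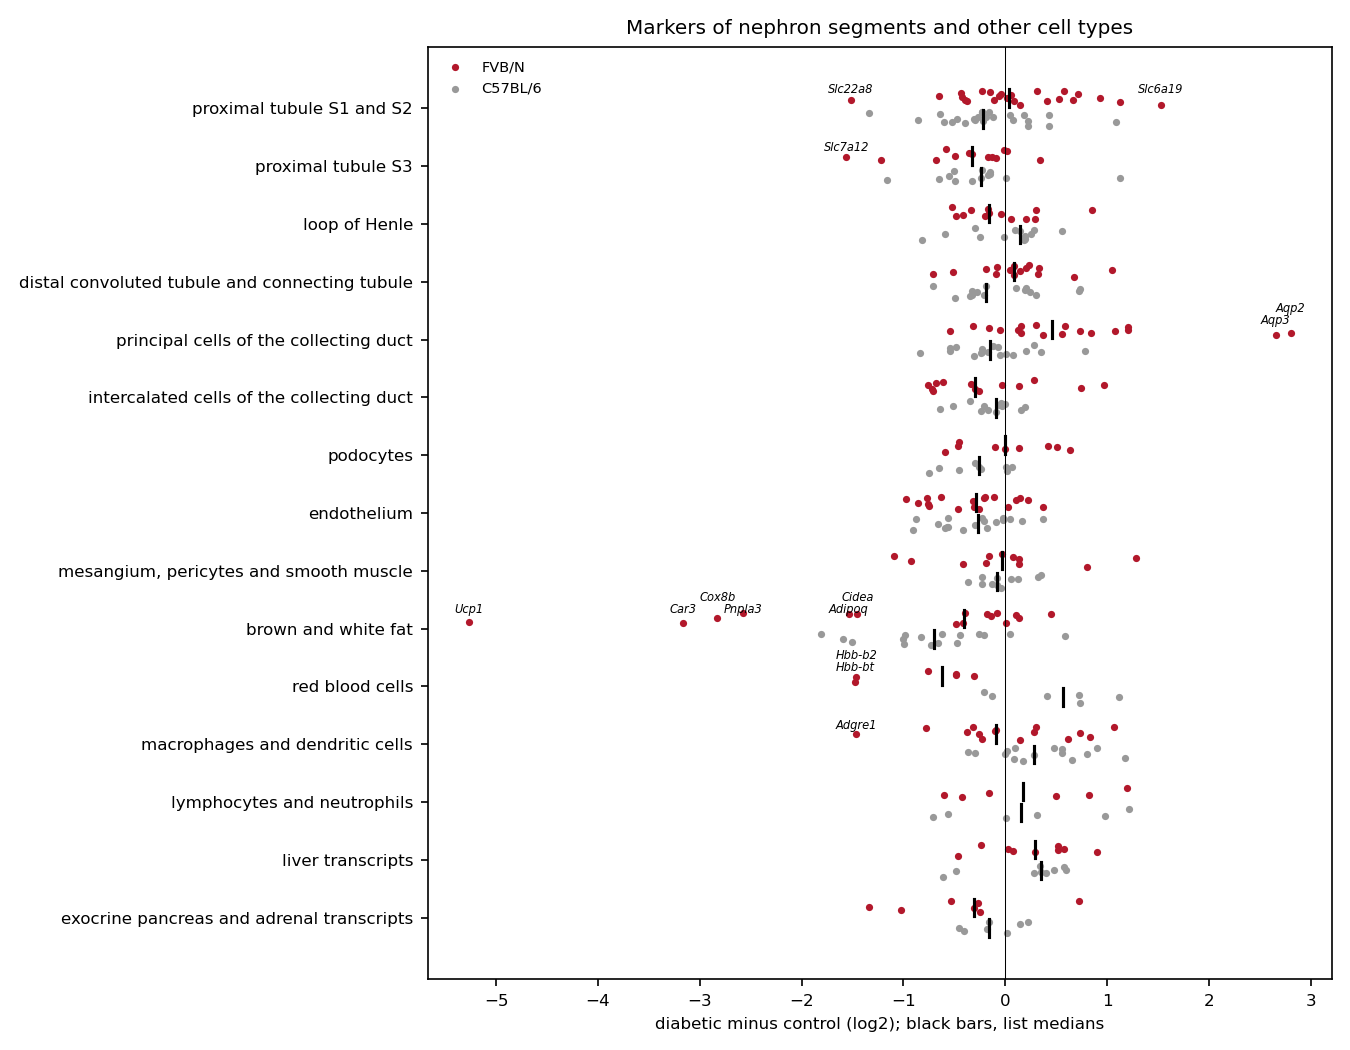
Difference between diabetic and control libraries (log2, x axis) for each expressed marker of nephron segments and other cell types, FVB/N in red and C57BL/6 in grey, with list medians as black bars. Aqp2 and Aqp3 stand apart among the principal cell markers, and Ucp1, Car3 and Cox8b among the fat markers.

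Osmolytes protect cells of the salty medulla. Slc6a12, which takes up betaine under control of the tonicity factor NFAT5, was 7.85 and 10.12 in the FVB/N libraries, against 6.00 and 6.80 in the C57BL/6 control and diabetic libraries. It was the highest of all in the FVB/N diabetic library, at a difference of 2.27. The rest of its list differed little: 2 of 12 expressed members were 1.5-fold higher and 0 lower, with a median of 0.09. Slc5a3, which takes up inositol, was 6.57 and 6.59, and Nfat5 itself was 8.12 and 8.46. In the sodium list 4 of 19 were higher and 0 lower, with a median of 0.21. Besides Scnn1a and Scnn1g these were Wnk1, the kinase upstream of the thiazide-sensitive cotransporter, at 9.91 and 10.96, with a difference of 0.32 for the mean of its probes, and the sodium pump subunit Atp1b1 at 13.84 and 14.62. The cotransporters of the loop and distal tubule differed little, with Slc12a1 at 13.06 and 13.12 and Slc12a3 at 9.88 and 10.20.

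Markers of the early and late proximal tubule had medians on either side of that of all genes. In the S1 and S2 segments, where most glucose and amino acids are reabsorbed, 5 of 24 markers were higher and 2 lower, with a median of 0.04. Slc6a19, the neutral amino acid transporter of the brush border, was 10.98 in the control and 12.51 in the diabetic library, and both of its probes were higher, by 1.26 and 1.53. Slc4a4, the basolateral bicarbonate cotransporter, was 8.90 and 10.03 by its brightest probe, and its other probe was higher by 0.07. The y+L amino acid transporter Slc7a7 was 9.38 and 10.31. Slc5a2, the glucose cotransporter SGLT2, was 8.18 and 8.49 by its brightest probe, and its other probe was higher by 1.05. The phosphate transporter Slc34a1 was 14.91 and 14.52. In the S3 segment 0 of 13 markers were higher and 3 lower, with a median of -0.33, and Slc7a12 was 11.43 and 9.87, Slc22a7 9.40 and 8.18 and Aadat, which transaminates kynurenine, 14.15 and 13.47. Averaging the probes of each gene brought that median to -0.17.

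Among transporters of organic ions, which clear drugs and metabolites, 10 of 26 expressed members were at least 1.5-fold lower and 1 higher, against 13.9% and 12.4% of all genes. Their median of -0.14 was near the -0.10 of all genes, and 10 members were above 0. In C57BL/6 their median was -0.27, with 6 lower and 1 higher. Slc22a26, of the organic anion transporter family, was 8.61 in the FVB/N control and 6.32 in the diabetic library, while the C57BL/6 libraries held 8.31 and 8.18. The FVB/N diabetic library alone was low. OAT3, encoded by Slc22a8, was 8.59 and 7.07. The ergothioneine transporter Slc22a4 was 9.64 and 8.51, and Slc22a22 was 11.17 and 10.17. Slco4a1 was the exception at 7.21 and 8.38. Slc22a7 was also lower in C57BL/6, by 1.16, with 1.22 in FVB/N.

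Enzymes that conjugate drugs and metabolites were mostly on the higher side. Of 32 expressed conjugating enzymes 13 were higher and 1 lower, with a median of 0.43. Gstm6, a glutathione transferase, was 9.93 and 11.35, the glucuronosyltransferase Ugt1a2 was 8.42 and 9.71 and the sulfotransferase Sult1a1 was 10.03 and 11.17. All were over 2-fold higher. Gstt2 was 11.32 and 12.28, and Acsm2, which joins medium-chain acids to coenzyme A, was the lower member at 11.07 and 10.41. Paralogs of these families are similar in sequence, and a probe may read more than 1 of them. Among cytochrome P450 enzymes 7 of 23 were higher and 1 lower. Cyp26b1, which degrades retinoic acid, was 6.84 and 8.19, and Cyp4f14, a fatty acid hydroxylase, was 6.82 and 5.52.

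Genes that make fatty acids were on the lower side and those of cholesterol synthesis on the higher side. Fasn, fatty acid synthase, was 11.84 in the FVB/N control and 10.04 in the diabetic library, and 11.85 and 9.83 in C57BL/6, so both diabetic libraries were low by about the same amount. Pnpla3, a lipid droplet hydrolase and SREBP-1c target, was 8.71 and 6.14 in FVB/N, and 5.99 and 5.37 in C57BL/6, so here the FVB/N control was the library that stood apart. Scd1, which places the double bond of oleic acid, was 13.71 and 12.62. Thrsp, a lipogenic regulator, was 6.35 and 5.0 and Acaca, acetyl-CoA carboxylase, 9.96 and 9.32, with its other probe at -0.16. In all 5 of 18 expressed members were lower and 1 higher, with a median of -0.23. The higher one was Elovl1, an elongase of very long chains, at 8.52 and 9.88, with its 3 probes between 1.35 and 1.79. In C57BL/6 the median of the list was -0.51, with 8 lower and 0 higher.

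Some of these genes are also expressed strongly in fat, and fat markers moved with them. Of 16 expressed fat markers, of 24 measured, 6 were at least 1.5-fold lower and 0 higher, and the log2 of the list's summed intensity was 14.84 in the control and 14.32 in the diabetic library. Their median was -0.40, while in C57BL/6 it was -0.70, with 10 lower and 1 higher. Ucp1, the uncoupling protein that defines brown fat, was 10.20 in the FVB/N control and 4.93, at background, in the diabetic library, against 10.87 and 9.36 in C57BL/6. Its difference of -5.27 was -4.71 with the low value raised to the minimum. Cox8b, also of brown fat, was 7.18 in the diabetic library, a difference of -2.83, and Cidea was 7.70 and 6.24. The adipocyte hormone gene Adipoq was 10.52 and 8.99 and the carbonic anhydrase Car3 was 11.06 and 7.89, although the mean of the Car3 probes gave -1.69. Fabp4, another fat marker, was below the minimum in the mean at 5.43 and 5.14. Pnpla3 stands in both lists. The part of adherent fat in the values of Fasn, Scd1, Thrsp and Pnpla3 was not tested.

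The cholesterol list had a median of 0.40, with 7 of 18 expressed members at least 1.5-fold higher and 0 lower, but over the 10 members that passed the stricter intensity minimum the median was -0.031. Sqle, squalene epoxidase, was 8.54 in the control and 9.99 in the diabetic library. The kinases of mevalonate and phosphomevalonate, Mvk and Pmvk, were 5.07 and 5.93, and 6.98 and 8.13. The Mvk control lay below the minimum. With it raised to the minimum the Mvk difference of 0.86 became 0.44, less than 1.5-fold. Fdps, which makes farnesyl diphosphate, was 8.95 and 9.81 and the sterol reductase Tm7sf2 was 7.23 and 7.99. Bright members did not share this: Hmgcs1, the synthase at the head of the pathway, was 14.10 and 13.64. The median of the list in C57BL/6 was -0.17.

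The promoters of Fasn and Pnpla3, on the lower side, and of Mvk, on the higher side, are shown with the CCAAT box, bound by NF-Y, which works beside SREBP at many lipid genes. The windows are as above, at chr11:120824498-120824797, minus strand, at chr15:84167566-84167865, plus strand and at chr5:114444019-114444318, plus strand, each from 250 bases before to 50 after the start in RefSeq's GRCm38.p6. Capitals mark CCAAT or its reverse complement ATTGG, and in Fasn a forward and a reverse match overlap by 2 bases.
Fasn: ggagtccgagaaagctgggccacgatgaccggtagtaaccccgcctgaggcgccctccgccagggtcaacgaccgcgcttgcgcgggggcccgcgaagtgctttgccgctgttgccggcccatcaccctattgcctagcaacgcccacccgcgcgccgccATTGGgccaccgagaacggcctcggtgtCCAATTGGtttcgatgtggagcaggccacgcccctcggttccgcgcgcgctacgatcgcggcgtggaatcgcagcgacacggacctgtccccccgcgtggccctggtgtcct
Pnpla3: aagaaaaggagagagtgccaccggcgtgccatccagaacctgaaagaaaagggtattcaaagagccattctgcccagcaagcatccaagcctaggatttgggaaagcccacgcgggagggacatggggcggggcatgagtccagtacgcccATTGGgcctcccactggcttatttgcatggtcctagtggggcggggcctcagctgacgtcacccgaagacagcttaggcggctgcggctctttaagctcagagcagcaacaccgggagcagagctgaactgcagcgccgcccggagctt
Mvk: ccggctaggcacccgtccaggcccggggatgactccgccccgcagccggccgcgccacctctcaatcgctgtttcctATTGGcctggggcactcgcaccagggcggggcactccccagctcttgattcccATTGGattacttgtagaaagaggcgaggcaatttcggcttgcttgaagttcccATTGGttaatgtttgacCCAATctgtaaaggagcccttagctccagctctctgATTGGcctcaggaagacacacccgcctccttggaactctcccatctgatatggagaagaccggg
Fasn held 3 matches, Pnpla3 1 and Mvk 5. All 15 cholesterol genes with a promoter in the table held at least 1, as did 9 of 13 fatty acid synthesis genes and 41.1% of all promoters. The box was thus present in genes on both sides. It was in 49.0% of the promoters of 2-fold higher genes and in 40.4% of those of 2-fold lower genes.

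Genes of fat burning were mixed. Of 30 expressed members 6 were higher and 4 lower, with a median of -0.08 that became 0.06 when a gene's probes were averaged. Angptl4, a fasting-induced inhibitor of lipoprotein lipase and PPAR target, was 8.70 and 10.18, and its other probe was 1.71 higher. Plin2, the lipid droplet coat protein of kidney tubules, was 7.67 and 8.91, and the receptor Ppara was 5.39 and 6.32. On the other side Hadh, of the mitochondrial oxidation cycle, was 8.78 and 7.57, though its other probe was higher by 0.57. The fatty acid uptake gene Cd36, which is strong in fat and macrophages, was 6.71 and 5.72, and Bdh1, of ketone body use, was 12.09 and 11.21, with its other probe at -0.16. Hacl1, which splits branched fatty acids in peroxisomes, was 6.66 and 8.59.

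In glucose metabolism 8 of 26 expressed members were higher and 2 lower, with a median of 0.23. The kinases that shut pyruvate dehydrogenase, and so spare glucose carbon, were higher together: Pdk4 was 7.72 and 9.01, Pdk2 was 7.58 and 8.64 and Pdk1 was 6.65 and 7.25. Of the enzymes of glycolysis Aldoa was 12.10 and 13.27 and Ldhb 13.06 and 14.16; in C57BL/6 they were 12.13 and 11.93, and 13.00 and 12.95, so that only the FVB/N diabetic library was high for either gene. By their brightest probes other steps differed little or the other way, Gapdh by 0.09 and Tpi1 by -0.42. Another probe of each was higher, by 0.60 for Gapdh and 0.55 for Tpi1. Pfkp, a phosphofructokinase isoform, was 5.27, below the minimum, and 7.42. On the lower side were G6pc, the last step of gluconeogenesis in the proximal tubule, at 14.30 and 13.66, and the hexokinase Hk2 at 6.54 and 5.86. Pck1, the other defining enzyme of gluconeogenesis, was 13.29 and 12.88.

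The tricarboxylic acid cycle had 7 of 21 members higher and 1 lower, with a median of 0.14. Idh3g, a subunit of isocitrate dehydrogenase, was 9.74 and 11.05, citrate synthase, Cs, was 10.65 and 11.71 and the succinate dehydrogenase subunit Sdhb was 12.56 and 13.56. The other probe of Sdhb was 0.18 higher. Sucla2 was lower, at 8.85 and 8.16, but by -0.23 as the mean of its probes. The respiratory chain differed by little: its 59 expressed members had a median of 0.24 in FVB/N and 0.19 in C57BL/6, with 7 higher and 1 lower in FVB/N.

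Amino acid metabolism had 10 of 36 members higher and 3 lower, with a median of 0.17. The serine and glycine branch held several of them. Shmt1, which converts serine to glycine, was 6.45 and 7.81, Phgdh, the first step of serine synthesis, was 5.41 and 6.38 and Psat1, the second, was 8.76 and 9.61, with its other probe higher by 0.097. Gnmt, which methylates glycine, was 7.05 and 8.96, and both C57BL/6 libraries lay at 6.53 and 6.43. Dao, which oxidizes D-amino acids, was 6.56 and 7.69 and the mitochondrial arginase Arg2 was 9.37 and 10.37. Glul, glutamine synthetase, was on the lower side at 11.62 and 10.93, as was the kynurenine hydroxylase Kmo at 10.74 and 9.93. Ddo was lower by 0.69 but level when its probes were averaged. Among 25 amino acid transporters 3 were higher and 1 lower. Slc38a3, which takes up glutamine for ammonia production in acidosis, was 5.54 and 6.94.

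Among acid-base genes those of the proximal tubule held most of the higher members. Car15, a membrane-bound carbonic anhydrase, was 10.81 in the control and 12.60 in the diabetic FVB/N library, with 11.12 and 11.23 in C57BL/6. Its difference of 1.79 was the largest on the higher side among the 1028 genes above percentile 95 of intensity. Car4, the brush border form, was 9.69 and 10.68 and the anion exchanger Slc26a6 was 5.63 and 6.87. Car12, a form of the collecting duct, was 12.26 and 11.55. Of 23 expressed members of the acid-base list 6 were higher and 4 lower, with a median of 0.13 that was -0.10 above the stricter minimum.

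Genes of tubular injury were mostly on the higher side. Lcn2, the iron-binding lipocalin NGAL shed by injured tubules, was 6.38 and 9.26 in FVB/N, and 6.42 and 7.66 in C57BL/6. Cdkn1a, the cell cycle inhibitor p21, was 6.05 and 9.03, and both of its probes were higher, by 2.32 and 2.99. In C57BL/6 it was 5.86 and 7.38, so the diabetic libraries of both strains were high, the FVB/N one more so. Clu, the secreted chaperone clusterin, was 11.48 and 12.91. Havcr1, kidney injury molecule 1, was 5.19 and 6.12, close to background. In C57BL/6 it was 5.20 and 6.94, a larger difference of 1.74 against 0.93 in FVB/N. Of 18 expressed members of the injury list 7 were higher and 1 lower, with a median of 0.31. The lower member was Cd44, at 6.39 and 5.55.

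Immediate early genes, which turn on within minutes of a stimulus, were 7 higher and 1 lower of 19, with a median of 0.32. Egr1 was 8.34 and 10.43 in FVB/N, and 9.36 and 10.23 in C57BL/6, so the FVB/N control was the lowest library. Fos was 5.52 and 7.31, Jun 6.29 and 7.51, Junb 5.10 and 6.26 and the secreted matrix protein gene Ccn1 was 6.65 and 8.10. Klf4 was the lower one at 7.74 and 6.04, a difference that was -0.47 for the mean of its probes.

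The NRF2 and iron storage list had 8 of 23 members higher and 0 lower, with a median of 0.35 against 0.00 in C57BL/6. Hmox1, which degrades heme, was 9.08 in the control and 11.14 in the diabetic library, whereas C57BL/6 had 10.19 and 9.01. The direction was opposite in the strains, a difference that was not tested. Nqo1, a quinone reductase, was 6.15 and 7.54, with both probes at least 0.96 higher, and Gclc, the catalytic subunit that starts glutathione synthesis, was 7.71 and 8.98. The carbonyl reductase Cbr1 was 11.47 and 12.55, the ferritin heavy chain Fth1 was 13.87 and 14.92, and the autophagy adaptor Sqstm1 was 10.49 and 11.43. Enzymes that remove superoxide and peroxide were not part of this: 1 of 21 was higher and 3 lower, among them catalase, Cat, at 11.07 and 10.44, and Msra, which repairs oxidized methionine, at 9.31 and 8.27. Nox4, the NADPH oxidase of kidney tubules, was 12.70 and 11.92.

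Glucocorticoid targets had the highest median of the 56 lists, 0.65, with 13 of 24 expressed members higher and 2 lower; in C57BL/6 the median was 0.17. Serpina6, which encodes the corticosteroid-binding globulin of plasma, was 5.04 in the control, below the minimum, and 9.05 in the diabetic FVB/N library, with 4.68 and 4.55 in C57BL/6. It was above the minimum in 1 of 4 libraries. Its difference of 4.01 was 3.56 with the control raised to the minimum. Ddit4, an inhibitor of mTOR, was 7.28 and 8.06, and the clock gene Per1 was 5.44 and 6.16. Cebpd, a transcription factor of the acute phase, was lower at 11.25 and 10.34, and lower by 1.22 by its other probe. The list also holds Cdkn1a, Lcn2, Angptl4, Pdk4, Hsd11b2 and Sult1a1, described above, so it is not a separate set of genes. Members and lists were chosen with earlier results of these data known, so its rank is only a description. Without the intensity filter its median was 0.48, below the 0.51 of principal cell markers.

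**Figure D4:**
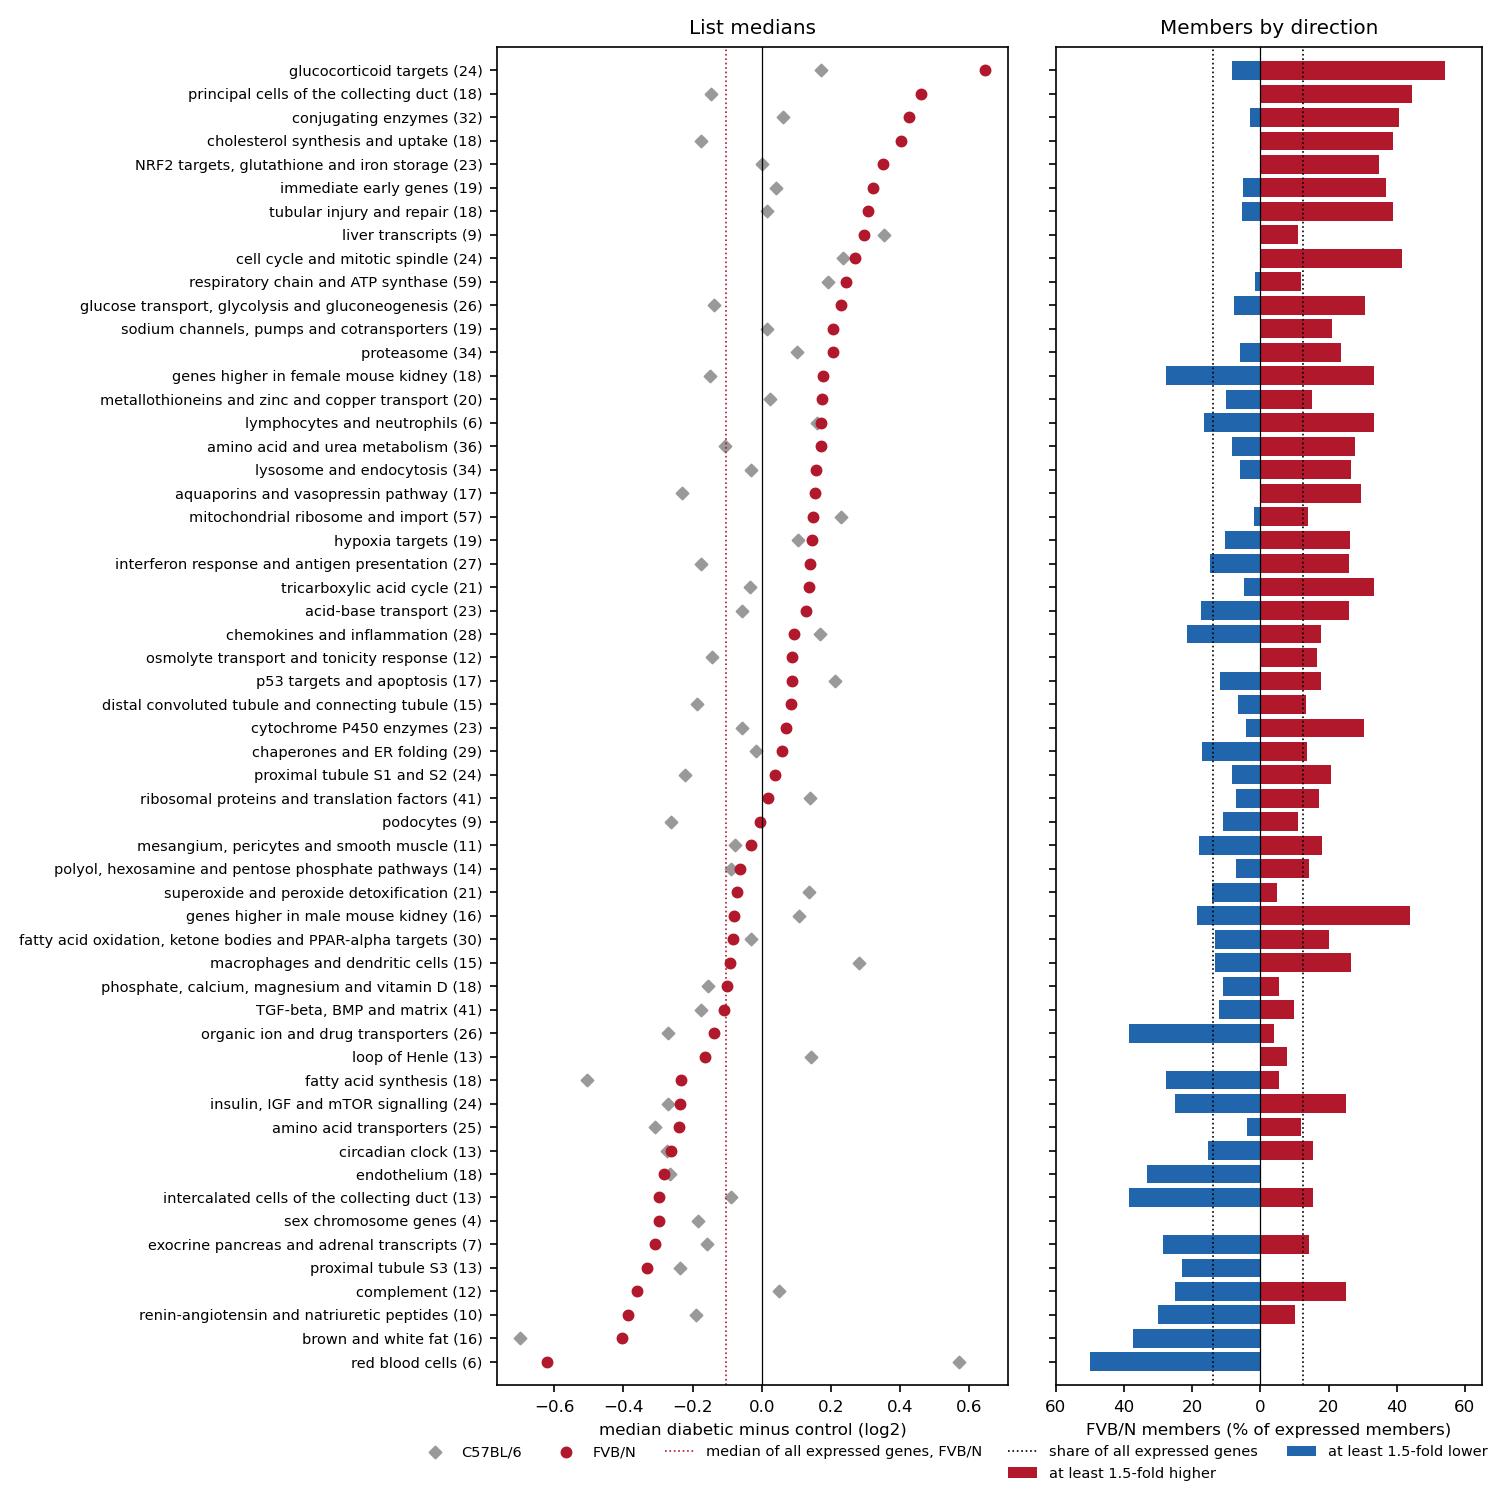
Left, median diabetic minus control difference (log2) of the expressed members of each gene list, number in brackets, for FVB/N (red) and C57BL/6 (grey); right, percent of expressed members at least 1.5-fold higher (red, to the right) or lower (blue, to the left) in FVB/N, with dotted lines at 12.4% and 13.9% of all genes. Glucocorticoid targets at 0.65 and principal cells at 0.46 lie highest, fat at -0.40 and red blood cells at -0.62 lowest.

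Genes whose level depends on sex in mouse kidney were among the largest differences in both directions. Kap, the kidney androgen-regulated protein, was 15.03 in the FVB/N control and 12.95 in the diabetic library, while both C57BL/6 libraries were at 15.04 and 14.79. It was the largest difference on the lower side among bright genes. Of 16 expressed genes known as higher in males 7 were higher and 3 lower: Cyp4a12a, a fatty acid hydroxylase, was 5.88 and 8.43, Cyp2d9 was 9.98 and 11.63, and Nudt19 was lower at 12.20 and 11.52. Of 18 known as higher in females 6 were higher and 5 lower, with Serpina6 at the top and Slc7a12 at the bottom, and Dio1, the thyroxine deiodinase, was 9.95 and 8.98. So neither set moved 1 way. The makeup of the libraries by sex could not be read from the array, since Eif2s3y, Kdm5d, Uty, Usp9y and Zfy1, of the Y chromosome, lay between 4.73 and 5.53 in all 4 libraries, at background. Zfy2, also of the Y chromosome, was close to the minimum, at 5.80 and 5.43 in FVB/N and 5.84 and 5.49 in C57BL/6. The part of sex makeup in these values was not tested.

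Endothelial markers were on the lower side. Of 18 expressed members 6 were lower and 0 higher, with a median of -0.28, and -0.26 in C57BL/6. Sox17, a transcription factor of arteries, was 7.21 and 6.23, Cdh5, the junction cadherin of endothelium, was 7.72 and 6.86, and Tek, the angiopoietin receptor, was 7.87 and 7.10. Ramp2, part of the adrenomedullin receptor, was 11.94 and 11.17. Pecam1 was 6.39 and 6.76, so not every marker was lower. Esm1, an endothelial proteoglycan gene, was 10.60 and 8.81. Podocyte markers showed 1 higher and 1 lower of 9, with Nphs1, nephrin, at 5.40 and 5.91, near background, and Podxl at 11.44 and 11.34. In smooth muscle and mesangium Acta2 was 11.47 and 12.27, and Pdgfrb, the receptor of pericytes and mesangium, was 8.30 and 7.38.

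Matrix and TGF-beta genes, central to later diabetic kidney disease, did not move together. Of 41 expressed members 4 were higher and 5 lower, with a median of -0.11, equal to that of all genes to within 0.01. Collagen genes were on the lower side where they differed, with Col5a1 at 7.75 and 6.62, Col15a1 at 6.76 and 5.82 and Col18a1 at 11.60 and 10.83, the last differing by -0.39 for the mean of its probes. Col4a4, of the glomerular basement membrane, was lower by 0.88 by its brightest probe and higher by 0.28 by its other one. The BMP genes Bmp4, Bmp6 and Bmp7 were higher by 0.64 to 0.77, and Grem1, a BMP antagonist known from diabetic kidney, was 5.94 and 7.92 against 5.60 and 5.63 in C57BL/6. Mdk, the growth factor midkine, was 10.08 and 8.03, and Mmp13, a collagenase, was 7.47 and 5.87.

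Insulin and growth factor signalling split evenly, with 6 of 24 higher and 6 lower. Eif4ebp3, which holds back cap-dependent translation, was 6.78 and 9.62, and only the FVB/N diabetic library was high, C57BL/6 being at 6.38 and 6.88. Pappa, the protease that frees IGF from its binding proteins, was 5.45 and 7.78, and the receptor Igf1r was 5.47 and 6.62. Lower were Igf2, at 9.27 and 7.95, the binding proteins Igfbp1, at 7.20 and 6.22, and Igfals, at 9.97 and 9.09, and the growth hormone receptor Ghr and its target Socs2, at 13.62 and 12.88, and 10.80 and 9.81. Socs2 and Igfals were also lower in C57BL/6, by 0.99 and 0.70. Cell cycle genes were 10 higher and 0 lower of 24, with a median of 0.27, and 0.24 in C57BL/6. Ccnd1, cyclin D1, was 12.30 and 13.26, with its 4 probes between 0.68 and 1.81, Tyms, which makes thymidylate, was 7.48 and 8.38, or 0.42 apart as the mean of its probes, and the reductase subunit Rrm1 was 5.72 and 7.05. Many mitotic genes were below the minimum.

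Immune genes showed no single direction. Of 28 chemokine and inflammation genes 5 were higher and 6 lower, with Ccl5 at 7.06 and 8.18, Ccl28 at 7.06 and 5.84 and the inflammasome genes Nlrp3 and Casp1 at 6.23 and 5.46, and 7.27 and 6.54. Macrophage genes split: Adgre1, the marker F4/80, was 8.18 and 6.72, whereas C1qb, of complement's first component, was 6.14 and 7.21. Of 12 complement genes 3 were higher and 3 lower, but 3 in all lay above 0, and the median of -0.36 compares with -0.10 for all genes and 0.05 for the same genes in C57BL/6. The lower ones were C2, at 11.83 and 10.55, Cfb, at 13.57 and 12.82, and Cd55, which protects cells from complement, at 7.21 and 6.17. Il18bp, the decoy receptor of interleukin-18, was 8.12 and 6.07. Ifitm1 and Ifitm2, of the interferon response, were 10.78 and 11.65, and 10.22 and 11.19, though the other probe of Ifitm1 was -0.42.

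Protein turnover showed small shifts. Proteasome genes had 8 of 34 higher and 2 lower, with a median of 0.21, and Psmb5, the chymotrypsin-like subunit, was 9.15 and 10.46. Psmc1 was 6.74 and 8.17, with a difference of -2.29 in C57BL/6. Lysosomal genes had 9 of 34 higher and 2 lower, with a median of 0.16 that was -0.01 after averaging of probes; the cathepsin Ctsz was 10.09 and 10.91, with both probes at least 0.82 higher. Chaperones were 4 higher and 5 lower of 29, with Herpud1, of endoplasmic reticulum stress, at 8.33 and 9.69 and the heat shock protein Hsph1 at 11.38 and 9.91. Genes of the mitochondrial ribosome and import had a median of 0.15, with Mrpl10 at 5.35 and 7.05. In the clock Nr1d2, a repressor of the loop, was 7.91 and 6.71 with both probes at least 1.01 lower, Dbp was 12.17 and 11.33 and Cry2 was 5.72 and 6.75. In the renin-angiotensin list 3 of 10 were lower and 1 higher: Agtr1a, the angiotensin receptor, was 10.42 and 9.69 and Agt, angiotensinogen, was higher by 0.79.

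The remaining lists differed less. In the loop of Henle 1 of 13 markers was higher and 0 lower, with a median of -0.16: Sostdc1, a BMP antagonist, was 12.31 and 13.16, and Umod, uromodulin, was 12.52 and 12.48. In the distal convoluted and connecting tubule 2 of 15 were higher and 1 lower, and Pvalb, parvalbumin of the early distal tubule, was 12.95 and 12.24. Of 14 genes of the polyol, hexosamine and pentose phosphate pathways, routes that glucose excess is known to feed, 2 were higher and 1 lower. Arrdc4, a glucose-induced arrestin relative, was 7.09 and 8.47, and Hagh, of methylglyoxal removal, was 11.68 and 12.76. So the markers of the loop and distal tubule and the genes of these glucose routes mostly stayed within 1.5-fold, unlike many collecting duct markers above.

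Hypoxia targets had 5 of 19 members higher and 2 lower, with a median of 0.14. Egln1, the oxygen sensor PHD2, was 6.16 and 7.37, with its other probe 0.15 higher, Aldoc was 8.49 and 9.71, and P4ha1, which hydroxylates collagen, was lower at 8.31 and 6.92. Targets of p53 had 3 of 17 higher and 2 lower, with a median of 0.09. Gadd45g, a growth arrest gene, was 7.59 and 8.78 and Trp53inp1 was 6.52 and 7.49, whereas Perp was 8.64 and 7.75 and Plk2 was 7.74 and 6.91. Apart from Cdkn1a this list was thus not on 1 side. Ribosomal and translation genes had a median of 0.02, with Rps3 at 12.67 and 13.65 and Eef2, elongation factor 2, at 11.62 and 12.49. Phosphate and calcium genes had 1 of 18 higher and 2 lower, and metallothionein and zinc genes 3 of 20 higher and 2 lower.

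Several of the largest differences fell outside these lists. Ogfod2, of the 2-oxoglutarate oxygenase family, was 6.62 and 9.23, Mrm3, which methylates mitochondrial ribosomal RNA, was 5.15 and 7.40, and Usp5, which takes apart free ubiquitin chains, was 5.93 and 8.14. Rbm3, the cold-induced RNA-binding protein, was 7.68 and 9.63 and the chaperone Bag6 was 8.81 and 10.67. Selenbp1, a selenium-binding methanethiol oxidase, was 11.77 and 13.06, with both probes at least 1.28 higher. On the lower side Nrep was 10.80 and 8.67, the inter-alpha-inhibitor chain Itih1 was 9.42 and 7.32, Pes1, of ribosome assembly, was 10.51 and 8.72, and the Wnt receptor Fzd1 was 10.32 and 8.83. Agmat, which hydrolyses agmatine, was 8.46 and 6.69. Greb1, a hormone-regulated gene, was 9.52 and 8.00 in FVB/N and 5.18 and 4.99 in C57BL/6, so that it was above background in FVB/N only. The splicing factor Srsf3 was 8.29 and 6.82, and its probes were lower by 1.47 and 1.58, the largest difference on the lower side that 2 probes of a gene shared.

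The C57BL/6 pair shared a small part of these differences. Of the 373 genes 2-fold higher in FVB/N, 15 or 4.02% were 2-fold higher in C57BL/6 too, where 1.03% of all genes were, and they made up 15.8% of the 95 genes higher there. Of the 201 lower genes 13 or 6.47% were shared, 14.3% of the 91 lower in C57BL/6, where 0.989% of all genes were lower. The strains' pairs share no library. Besides Cdkn1a, Lcn2 and Fos the shared higher genes held Serpina10, of the coagulation pathway, at 7.08 and 8.73 in FVB/N and 6.21 and 8.25 in C57BL/6, and Ch25h, which makes 25-hydroxycholesterol, at 6.24 and 7.95, and 6.17 and 7.37. Spink8, a kidney protease inhibitor gene, differed by 1.31 and 1.13 from very different levels, 6.55 in the FVB/N and 10.93 in the C57BL/6 control. The shared lower genes were led by Ucp1, Cox8b and Fasn and included Cidea, Scd1 and Slc22a7. The opposite way in C57BL/6, 29 of the 373 higher genes, or 7.77%, were at least 1.5-fold lower, where 6.35% of all genes were, and 13 of the 201 lower genes, or 6.47%, were at least 1.5-fold higher, where 6.14% of all genes were. Both shares were near those of all genes.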

How the data were processed

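Kidney RNA was isolated with Trizol and column clean-up and hybridised as biotinylated cRNA to Illumina arrays, per the labels' protocols. The deposited series table holds values that were read as log2 intensities from their range of 4.45 to 15.84. The medians of the libraries were 5.48 to 5.49 and their distributions nearly identical; the sources used here do not state the background correction, normalization or filters. Precision is limited by having 1 array per group.

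Of 24613 probes 20984 had exactly 1 gene symbol in the platform annotation, and 20968 were matched to RefSeq by gene identifier. The brightest probe stood for each gene. Differences were taken without further normalization, with Python 3.11.15, pandas 2.3.3 and statsmodels 0.14.6, after the steps were tested on simulated data. Genes above 2-fold and list members above 1.5-fold were counted, for 56 lists.

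Genes named in the text are the 30 with the largest difference each way (unnamed gene models skipped and not replaced), the 10 by the least of their probes, the 10 among genes above percentile 95, up to 5 members of each list in each direction (topped up to 3 by size where fewer passed 1.5-fold), and defining cell markers. Not every gene of that rule is given, and Avpr2, Scnn1b, Slc5a3, Nfat5, Hmgcs1, Pck1, Havcr1 and genes shared by the strains were added after their values were seen. Members and lists were chosen with earlier results of these data known. The alternatives were quantile normalization, median centring, loess centring with a span of 0.3, no filter, a minimum at percentile 75, means or medians of a gene's probes, and a floor at the minimum.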

Additional observations from a re-analysis of the deposited data

Results flagged for a closer look

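For 15 named genes the FVB/N and C57BL/6 pairs were at least 1.5-fold apart in opposite directions, each strain with 1 library per group, so the difference between the strains was not tested. On the higher side in FVB/N were Hmox1 at 2.07 against -1.18 in C57BL/6, Adcy6 at 1.60 against -0.80, Psmc1 at 1.43 against -2.29, Cyp26b1 at 1.35 against -0.78 and Gclc at 1.26 against -0.70. Cry2 stood at 1.03 against -0.90, Igf2r, which clears IGF2, at 0.91 against -1.09, Slc4a9 at 0.75 against -0.64, the iron transporter Slc11a2 at 0.70 against -0.75 and the zinc transporter Slc39a7 at 0.63 against -1.11. On the lower side in FVB/N were Hbb-bt at -1.47 against 0.73, Hbb-b2 at -1.46 against 1.12 and the kinase Plk2 at -0.84 against 0.60. Sucla2 stood at -0.69 against 0.67 and the ribosomal protein Rplp0 at -0.62 against 0.59. The other probe of Rplp0 was 0.28 higher in FVB/N. The hemoglobin genes lay at unlike levels in the strains. Hbb-b2 was 12.82 and 11.36 in FVB/N control and diabetic, and 8.69 and 9.81 in C57BL/6. Hbb-bt was 8.97 and 7.50 in FVB/N, and 10.91 and 11.64 in C57BL/6. Their probes may read related hemoglobin genes, so they may not be separate results, which was not tested.

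Probes without an annotated gene were in no comparison. Of 1477 that reached the minimum, 70 or 4.74% were at least 2-fold higher in the FVB/N diabetic library and 34 or 2.30% at least 2-fold lower. The highest was 6.57 in the control and 9.65 in the diabetic library.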

How the results depend on the processing

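The counts of 373 higher and 201 lower genes became 160 and 128 with the minimum at percentile 75, which leaves 5011 genes to count. Under the other alternatives 333 to 481 were higher and 145 to 206 lower. Of the 56 lists, 19 had a median at least 0.25 from 0; without the intensity filter 8 had. With the minimum at percentile 75 the median of exocrine pancreas and adrenal transcripts, of which 1 member was left, was 0.72 in place of -0.31, and that of cholesterol synthesis -0.031 in place of 0.40. Atp6ap2, an accessory protein of the proton pump, was -0.67 by its brightest probe and 0.39 as the mean of its probes, and Ddo -0.69 and 0.0081, also as the median of its probes. With the mean of all probes, 23 of the 224 named genes with a value moved by more than the spread between probes, besides those 2, and 18 named genes that were at least 1.5-fold apart by their brightest probe no longer were. Among those that moved were Klf4, from -1.70 to -0.47, Wnk1, from 1.05 to 0.32, Gstm6, from 1.42 to 0.63, and Rbm3, from 1.96 to 0.73. The causes were not tested. Dim genes limit these results: the lower side of 68 of the 373 and 19 of the 201 genes lay below the minimum, and their differences are uncertain in size. No paired analysis was possible because each group has 1 library.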

Other observations

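Olfactory receptor genes, which are not known for strong expression in kidney, were dim, with a median intensity of 5.71 for the 184 that reached the minimum. In FVB/N 33 of them were at least 1.5-fold lower and 0 higher, with a median of -0.32, whereas in C57BL/6 12 were lower and 10 higher, with a median of -0.04. Zinc finger genes with the Zfp symbol, 138 of them, had a median of -0.30 in FVB/N and 0.05 in C57BL/6, with 29 lower and 9 higher in FVB/N. The genes of the mitochondrial ribosome had medians of 0.25 for 44 of the large subunit and 0.28 for 25 of the small subunit. Solute carriers, 237 of them, had a median of -0.04 with 31 higher and 34 lower. Over all expressed genes in FVB/N 12.4% were at least 1.5-fold higher and 13.9% lower, with a median of -0.10. The solute carriers were near these shares.

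Amy2a5 and Reg1, genes of the exocrine pancreas, were 7.34 and 6.01, and 6.22 and 5.20, while the pancreatic elastase gene Cela1 was 11.66 and 12.38. The neutrophil genes S100a8 and S100a9 were 5.87 and 6.70, and 5.66 and 6.86. Guca2b, which encodes the natriuretic peptide uroguanylin, was 11.53 and 12.64 in FVB/N, below both C57BL/6 libraries at 13.45 and 13.67. The metallothionein Mt1 was 14.21 and 14.56. Kl, which encodes the FGF23 co-receptor klotho, was 11.79 and 11.10, and Egf, the growth factor of the distal tubule, 13.76 and 13.24.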
